A study of Mus musculus with 5 samples.

Results

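The difference between Cldn4 knockout and wild type lungs with ventilation, minus the same difference without ventilation, was derived gene by gene for mouse whole lung RNA. This quantity, the genotype by ventilation interaction, was taken once with ventilated knockouts of low injury and once with those of high injury. Members were all genes with a mean abundance of at least 1 on the log2 CPM scale (reads of a gene relative to all reads counted) in the 3 deposited comparison tables involved, X- and Y-linked genes left out. The rule gave 12875 of 21590 genes, and 12483 of them could be tested. The other 392 were listed with a fold change of exactly 0 in at least 1 table, among them Scgb1a1 and Sftpc, the main secretory products of club and alveolar type 2 cells. Just inside the abundance minimum lay Ggt1, with a lowest log2 CPM of 1.02 and interactions of 0.67 and 0.99. Just outside lay Ovgp1, at 0.99 with interactions of 0.90 and 0.69.

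Claudin-4 is a transmembrane protein of epithelial tight junctions, the seals that limit the passage of ions and water between cells, and it is known to be induced in injured alveolar epithelium. Ventilation with overstretch sets off mechanical signalling in lung cells. Within minutes to hours this switches on immediate early genes, the transcription factors and RNA-decay proteins that need no new protein to be induced, and after them cytokine genes that recruit neutrophils. A positive interaction means that the knockout level relative to wild type was higher with ventilation than without. By the same arithmetic, the log2 change from unventilated to ventilated knockouts was then more positive, or less negative, than that of the wild types.

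All mice were of a mixed 129S6, C57BL/6 and BALB/c background. Lungs came from wild types (WT_noVILI) and knockouts (KO_noVILI) that were not ventilated, from wild types ventilated for 2 h at 40 cmH2O (WT_VILI), and from knockouts ventilated likewise whose injury resembled that of wild types (KO_VILIlow) or exceeded it (KO_VILIhigh). The design text gives 2 libraries per group. The tables hold no value per library, so each group has 1 rebuilt level in CPM and errors come from the deposited p-values. Whether the duplicates are separate animals is not stated, so p-values measure only the spread between libraries, which may be technical. How the Cldn4 allele was made is not in the labels, and the 2 ventilated knockout groups were formed by how badly the animals fared.

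The rebuilt Cldn4 level was 9.38 CPM in unventilated and 140 CPM in ventilated wild types, and 0.14, 0.0212 and 0.122 CPM in KO_noVILI, KO_VILIlow and KO_VILIhigh. The genotype labels therefore held in all 5 groups. Cldn4 is itself among the genes called negative, but with knockout levels so near 0 its interaction has no readable size. Xist, the RNA that silences an X chromosome in female cells, was at 891 and 505 CPM without ventilation and between 2.56 and 6.13 CPM with it. Ddx3y, a Y-linked gene, was at 0.234 and 0.421 CPM without ventilation and between 90.7 and 115 CPM with it. Ventilation and sex therefore cannot be told apart in any interaction below. Of 54 markers of lung cell types found in the tables, none was at 0 in any group, and the lowest was the neutrophil granule gene Camp at 0.33 CPM. Summed levels were 7660 to 8860 CPM for 4 markers of alveolar type 2 cells, 2430 to 3020 CPM for 4 of alveolar type 1 cells and 2470 to 3140 CPM for 4 of endothelium.

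The low-injury interaction was called positive for 121 genes (0.969% of those tested) and negative for 32 (0.256%), at an adjusted p of 0.05 over all genes tested. The high-injury interaction was called positive for 168 genes (1.35%) and negative for 52 (0.417%). Each value is a difference of 2 log2 fold changes, its standard error (SE) is approximate, and the median SE was 0.28 (low) and 0.31 (high). The smallest called values were 0.81 and 0.83 log2 in size. Medians over all genes were -0.02 and -0.03, and 47.2 and 45.5% of all tested genes had a value above 0. The 5th to 95th percentiles ran from -0.58 to 0.59 and from -0.71 to 0.79. Without adjustment, 729 genes (5.84%) and 1168 genes (9.36%) passed a p of 0.05. Both interactions share 3 of their 4 groups, so the values are given side by side and the test of their difference is given separately.

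Most called genes had genotype differences of opposite sign with and without ventilation: 113 of 121 and 24 of 32 for low injury, and 140 of 168 and 42 of 52 for high injury. A call needs a large difference between the genotype values with and without ventilation, which by itself favours opposite signs. The share of opposite signs over all tested genes was not counted. The authors' deposited tables themselves called 621 of the tested genes (4.97%) in unventilated lungs, 179 (1.43%) in low-injury lungs and 294 (2.36%) in high-injury lungs. Set against those calls, 48 of the 121 positive low-injury genes were called by the authors only in unventilated lungs, 32 only in ventilated lungs, and 21 in both with opposite signs. For the 168 positive high-injury genes these numbers were 58, 78 and 14. The low-injury interaction thus drew more of its calls from the unventilated side, and the high-injury interaction more from the ventilated side. Of the 121 and 168 positive genes, 51 and 89 were in any of the 35 gene lists used below. For negative genes it was 10 of 32 and 5 of 52.

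**Figure D1:**
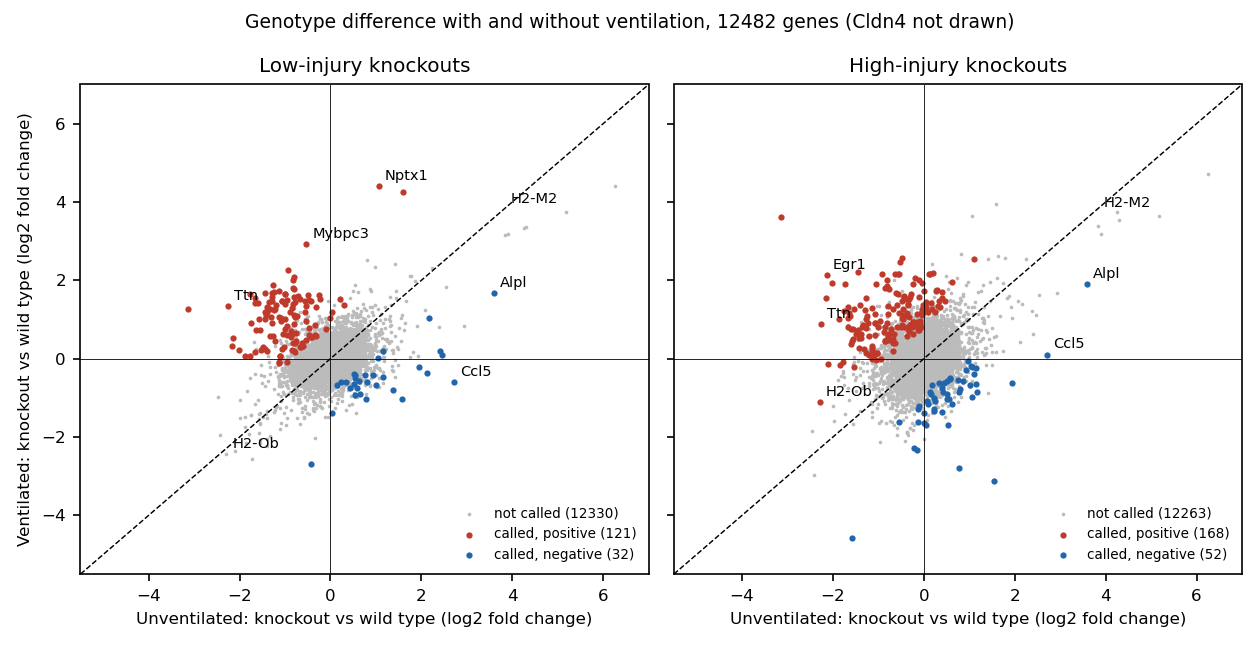
Log2 fold change of knockout against wild type in unventilated lungs (horizontal axis) and in ventilated lungs (vertical axis) for each tested gene, with low-injury knockouts on the left and high-injury knockouts on the right; the dashed line marks equal differences. Called positive interactions (121 and 168 genes, red) lie mostly in the upper left quadrant, where the knockout was below wild type at rest and above it after ventilation. Selection for a large positive difference by itself favours that quadrant.

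Immediate early genes had the highest median interactions among the lists of signalling genes. Of 28 members tested, 11 were called positive for low injury and 20 for high injury, and none was called negative. Their median was 0.77 and 1.82 log2, beside -0.02 and -0.03 over all genes. In the authors' deposited tables, 10 of the 28 were called lower and 2 higher in unventilated knockouts, none was called in low-injury knockouts, and 22 were called higher in high-injury knockouts. Summed over the list, levels were 4080 CPM in WT_noVILI, 2680 in KO_noVILI, 6290 in WT_VILI, 7820 in KO_VILIlow and 15700 in KO_VILIhigh.

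Egr1 encodes a zinc finger transcription factor induced by stretch and growth factors. Its level was 381 CPM in WT_noVILI, 86.4 in KO_noVILI, 635 in WT_VILI, 973 in KO_VILIlow and 2960 in KO_VILIhigh. The unventilated knockouts were the lowest group and the high-injury knockouts the highest. Its interaction was 2.68 ± 0.49 (SE; adjusted p = 1.15e-05) for low and 4.28 ± 0.47 (adjusted p = 2e-16) for high injury, the largest of the list in both. Fos, which pairs with Jun proteins in the AP-1 factor, was at 180, 44.5, 236, 283 and 908 CPM in the same order of groups. Its interactions were 2.25 ± 0.50 and 3.95 ± 0.52. Fosb, a close relative, was at 28.7, 10.5, 93.2, 110 and 420 CPM. Its interactions were 1.70 ± 0.35 and 3.64 ± 0.38. Junb, a partner of both, was at 150, 72.9, 237, 374 and 900 CPM, with interactions of 1.67 ± 0.30 and 2.96 ± 0.32. All 4 AP-1 and Egr genes shared the same order: KO_noVILI lowest, WT_noVILI next, then WT_VILI, KO_VILIlow and KO_VILIhigh.

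Nr4a1, an orphan nuclear receptor, was at 308 CPM in both wild type groups, 68.9 in KO_noVILI, 403 in KO_VILIlow and 934 in KO_VILIhigh. Its interactions were 2.49 ± 0.47 and 3.72 ± 0.47 although the wild type levels were equal. Egr3, a relative of Egr1, was at 17.8, 5.35, 21.6, 37.4 and 73.9 CPM, with 2.65 ± 0.51 and 3.64 ± 0.38. Btg2, an antiproliferative partner of the deadenylase that shortens mRNA tails, was at 482, 182, 414, 496 and 1110 CPM. Its SE was 0.24 and 0.25, beside medians of 0.28 and 0.31 over all genes, and its interactions were 1.59 (adjusted p = 3.95e-08) and 2.77 (adjusted p = 5.2e-24). Zfp36, which binds AU-rich mRNAs and speeds their decay, was at 162, 94.7, 379, 530 and 1340 CPM, with 1.19 ± 0.26 and 2.55 ± 0.29. At the other end of the list, Klf6 had 0.19 ± 0.24 and 0.44 ± 0.26, and Nfil3 -0.40 ± 0.37 and 0.01 ± 0.39, none of them called. Nfil3 was higher, by 0.97 log2, in unventilated knockouts in the authors' deposited table.

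Promoters of Zfp36 and Btg2, which each hold a match, are shown. The reason to search was that members moved together. Another was that serum response factor (through the CArG box) and CREB (through the cAMP response element) are the textbook regulators of immediate early transcription. The sequences are the 250 bases before the start of the RefSeq gene model on GRCm38.p6, a later build than the authors' mm9, written 5′ to 3′ on the gene's strand with the motif in capitals. Zfp36 (chr7:28379229-28379478, minus strand) holds a CArG box 58 to 49 bases before the start, and Btg2 (chr1:134079156-134079405, minus strand) the cAMP response element TGACGTCA 166 to 159 bases before it.
Zfp36: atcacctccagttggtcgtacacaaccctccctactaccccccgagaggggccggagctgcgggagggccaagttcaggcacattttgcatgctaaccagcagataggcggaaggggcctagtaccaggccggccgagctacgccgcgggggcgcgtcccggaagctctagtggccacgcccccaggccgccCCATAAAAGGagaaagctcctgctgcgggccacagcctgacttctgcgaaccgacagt
Btg2: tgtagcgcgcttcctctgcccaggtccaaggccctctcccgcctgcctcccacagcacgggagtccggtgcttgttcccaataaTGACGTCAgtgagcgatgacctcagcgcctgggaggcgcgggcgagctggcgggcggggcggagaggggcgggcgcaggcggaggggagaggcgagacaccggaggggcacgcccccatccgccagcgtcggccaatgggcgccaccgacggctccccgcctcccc

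Both strands were searched, and overlapping matches of different motifs were each counted. Counts are of genes, and a gene held a match if any of its promoters did. A CArG box was found in 3 of the 22 immediate early genes with a promoter available (13.6%), beside 140 of 9841 among all tested genes (1.42%). The element TGACGTCA was found in 2 of 22 (9.09%), beside 292 of 9841 (2.97%). The promoters of Fos, Fosb, Junb and Nr4a1 held neither, and only promoters with a match are printed above. Egr1, Egr3 and Ier2 had no promoter available and were not searched. Among genes called positive with a promoter available, a CArG box was found in 8 of 86 (9.30%) for low injury and 9 of 126 (7.14%) for high injury. For TGACGTCA the shares were 3.49% and 7.14%. These are matches of letters in a short window and were not tested for binding.

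**Figure D2:**
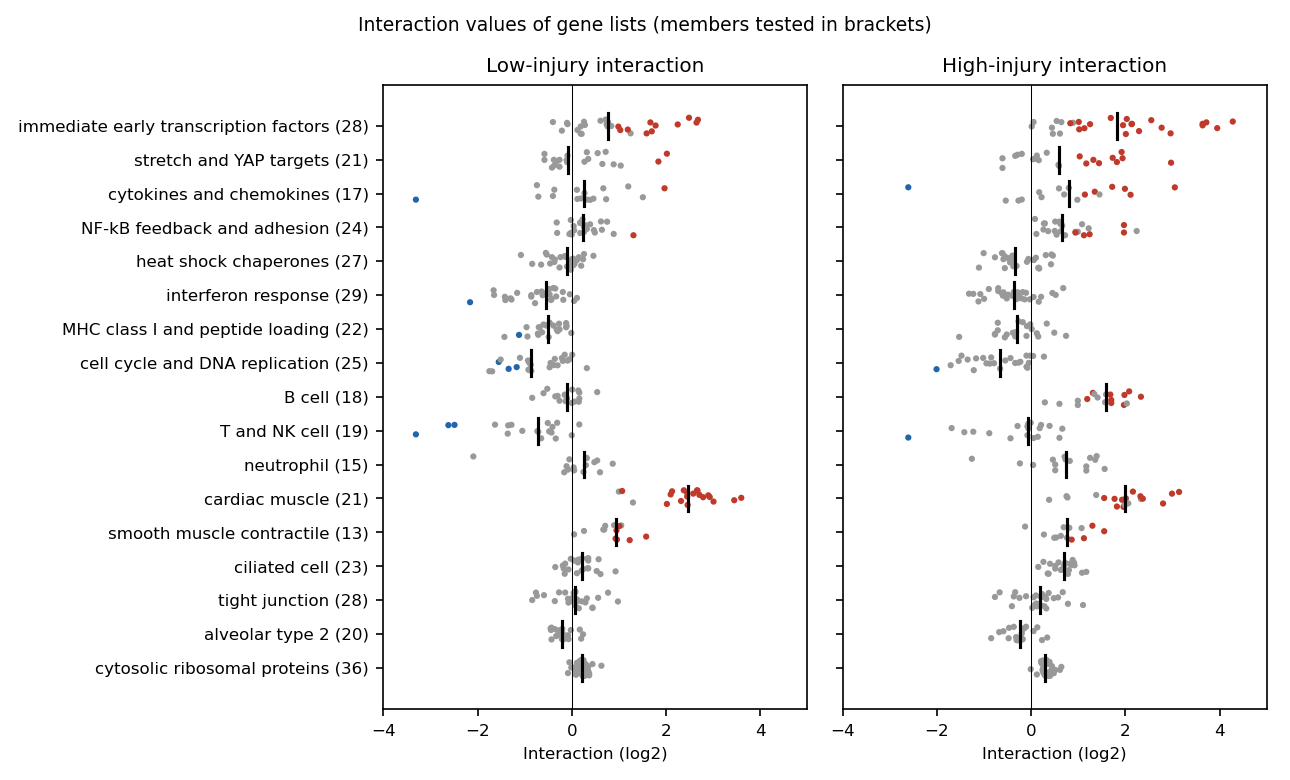
Interaction of each tested member (points) of 17 gene lists, for low injury on the left and high injury on the right, in log2 units; red points were called positive, blue points negative, grey points not called, and black bars are list medians. Cardiac muscle genes sit far to the right in both panels, immediate early genes shift further right for high injury, and B cell genes lie around 0 for low injury and above 0 for high injury.

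Of 15 feedback regulators of MAP kinase signalling, 1 was called positive for low injury and 3 for high injury, with medians of 0.16 and 0.70. Dusp1, a phosphatase that switches off p38 and JNK, was at 486, 232, 575, 706 and 1130 CPM. Its interactions were 1.31 ± 0.27 and 1.97 ± 0.31. Dusp5, an ERK phosphatase in the nucleus, was at 6.98, 6.05, 8.96, 15.6 and 32.8 CPM, with 1.22 ± 0.40 (adjusted p = 0.147) and 2.28 ± 0.41. The unventilated groups hardly differed in Dusp5, so its interaction came from the ventilated side. Errfi1, a feedback inhibitor of the EGF receptor, was called for high injury at 0.93 ± 0.27.

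Among 21 targets of stretch and of the coactivator YAP, 2 were called positive for low and 9 for high injury, none negative. The medians were -0.09 and 0.58. Cyr61, a matrix protein and standard YAP target, was at 443, 140, 596, 708 and 1560 CPM. Its interactions were 1.84 ± 0.28 and 2.97 ± 0.32. Thbs1, which activates latent TGF-beta, was at 261, 206, 1910, 3190 and 5310 CPM, with 1.04 ± 0.33 and 1.73 ± 0.32, only the latter called. Hbegf, a ligand of the EGF receptor, had 0.89 ± 0.33 and 1.92 ± 0.30, again called only for high injury. Ctgf, another standard YAP target, had 0.27 ± 0.28 and 0.59 ± 0.26 and was not called, so the list did not move as a block. Ankrd1 had 2.02 ± 0.40 and 1.82 ± 0.42, and is a cardiac muscle gene as well.

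Of 17 cytokine and chemokine genes tested, 1 was positive and 1 negative for low injury, and 6 and 1 for high injury, with medians of 0.27 and 0.80. Lif, a cytokine of the interleukin-6 family, was at 8.01, 5.73, 20.5, 52.3 and 109 CPM. Its interactions were 1.97 ± 0.39 and 3.05 ± 0.35, both called. Il1b, the central cytokine of the inflammasome, was at 14.6, 14.7, 45.9, 70.0 and 145 CPM: equal at rest and highest in the high-injury knockouts. Its interactions were 0.67 ± 0.36 (adjusted p = 0.923) and 1.72 ± 0.35 (adjusted p = 2.38e-04). The second call ended, with an adjusted p of 1, when the error of its unventilated difference was taken from its own p, because that difference is close to 0. Ccl22, a chemokine for regulatory T cells, had 0.32 ± 0.44 and 2.11 ± 0.54. Cxcl1, a neutrophil chemokine, was at 1.61, 4.99, 15.2, 25.4 and 81.9 CPM and called in neither interaction, at -0.71 ± 0.53 and 0.98 ± 0.56. It was already above wild type in unventilated knockouts.

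Tnf and Il6 missed the abundance minimum in unventilated lungs, where their mean log2 CPM was 0.35 and -0.75. In the authors' deposited tables, the genotype difference of Tnf was 0.24 log2 without ventilation, 0.60 with low and 2.01 with high injury. For Il6 it was -0.96, 0.76 and 2.24. No interaction was tested for either.

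Among 24 genes of NF-kB feedback and leukocyte adhesion, 1 was called positive for low injury and 5 for high injury. The high-injury value was above 0 for all 24, beside 45.5% of all genes tested. The medians were 0.24 and 0.65. Socs3, the inhibitor of interleukin-6 signalling, was at 40.5, 46.9, 119, 338 and 531 CPM. Its interactions were 1.31 ± 0.26 and 1.97 ± 0.33, both called, with hardly any genotype difference at rest. Nfkbiz, a nuclear cofactor of NF-kB, had 0.75 ± 0.25 (adjusted p = 0.155) and 1.97 ± 0.33 (adjusted p = 8.33e-07). Zc3h12a, an RNase that degrades cytokine mRNAs, had 0.39 ± 0.30 and 1.24 ± 0.34. Neutrophil genes had summed levels of 1080 and 1490 CPM in KO_VILIlow and KO_VILIhigh, beside 872 in WT_VILI and 338 and 345 without ventilation. In the authors' deposited tables, 1 and 3 of the 15 tested were called higher in low- and high-injury knockouts. None of the 15 was called in either interaction, 1 and 6 passed without adjustment, and the medians were 0.25 and 0.73. The part of neutrophil number in the cytokine values was not tested. In whole lung, more cells of a type and more RNA per cell cannot be told apart.

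None of 27 heat shock chaperones was called in either interaction, with medians of -0.10 and -0.34, and 3 and 4 passed an unadjusted p of 0.05. Hspa1a, the inducible HSP70, was at 24.1, 91.0, 23.9, 39.2 and 54.5 CPM, so it was above wild type in all 3 knockout groups, with interactions of -1.08 ± 0.44 and -0.61 ± 0.40. Of 21 genes of the unfolded protein and integrated stress responses, none was called for low injury and 1 for high injury. That gene, Ppp1r15a, encodes the phosphatase subunit that restarts translation, and had 0.76 ± 0.23 and 1.53 ± 0.25. Of 18 glucocorticoid-responsive genes, 3 were positive for low and 5 for high injury. Dusp1, called in both, and Errfi1, called for high injury, were already counted above with MAP kinase feedback. The called genes also include the zinc-binding metallothioneins Mt1, at 25.6, 25.3, 143, 296 and 370 CPM, and Mt2, at 9.0, 7.66, 86.4, 244 and 314 CPM. Their interactions were 1.06 ± 0.29 and 1.39 ± 0.37 for Mt1, and 1.76 ± 0.35 and 2.13 ± 0.47 for Mt2. With each gene's own error throughout, the low-injury call of Mt1 ended (adjusted p = 0.11). Hmox1, which breaks down haem, was called only for high injury (0.98 ± 0.27), as was the glucose transporter Slc2a1 (1.06 ± 0.30).

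Clock genes moved both ways. Of 18, 1 was positive for low injury (Bhlhe41), and 3 positive and 1 negative for high injury. Nr1d1, the repressor REV-ERB-alpha, was at 331, 201, 123, 92.9 and 206 CPM. Its interactions were 0.33 ± 0.24 and 1.48 ± 0.26 (adjusted p = 3.64e-06). Per3, a period protein, was at 182, 125, 99.1, 72.5 and 32.0 CPM, with 0.11 ± 0.24 and -1.06 ± 0.28 (adjusted p = 0.0143). Bhlhe40 and Bhlhe41, repressors of clock genes, had 0.78 ± 0.23 and 1.29 ± 0.25, and 1.18 ± 0.34 and 1.30 ± 0.37. The low-injury call of Bhlhe41 ended with its own error throughout (adjusted p = 0.153) and with an abundance minimum of 3 (adjusted p = 0.0508). The hour of sacrifice is not in the labels, and its part in these values was not tested.

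Cardiac muscle genes had the highest median of all lists for low injury. Of 21 members, 19 were called positive for low injury and 13 for high injury, and every one of the 21 had a value above 0 in both. The values ran from 1.0 to 3.60 (median 2.46) and from 0.38 to 3.14 (median 1.99). Of these genes, 13 were called lower by the authors' deposited tables in unventilated knockouts, 16 higher in low-injury knockouts and 3 higher in high-injury knockouts. Summed levels were 1230 CPM in WT_noVILI, 551 in KO_noVILI, 881 in WT_VILI, 1950 in KO_VILIlow and 1380 in KO_VILIhigh. As background, cardiac muscle extends from the heart along the pulmonary veins of mice, so its RNA can be part of a whole lung sample. How much of it each sample held was not measured, and its part in these interactions was not tested.

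Ttn encodes titin, the molecular spring of the sarcomere. Its level was 98.8 CPM in WT_noVILI, 20.7 in KO_noVILI, 71.9 in WT_VILI, 178 in KO_VILIlow and 129 in KO_VILIhigh. Its interaction was 3.60 ± 0.43 (adjusted p = 7.77e-13) for low and 3.14 ± 0.80 (adjusted p = 0.0093) for high injury. The larger error in the second came from the high-injury table. Over the cardiac list, the median SE of the log2 fold change was 0.45 there, 0.32 in the low-injury table and 0.31 at rest. Myl7, the atrial regulatory light chain, was at 70.2, 23.2, 39.7, 101 and 64.8 CPM, with 3.01 ± 0.45 and 2.37 ± 0.51. Tnnt2, cardiac troponin T, was at 37.0, 15.6, 19.6, 58.1 and 38 CPM, with 2.93 ± 0.42 and 2.32 ± 0.55. Tnni3, cardiac troponin I, had 2.58 ± 0.38 and 1.93 ± 0.53. Hspb7, a small heat shock protein of heart muscle, had 2.46 ± 0.35 and 1.77 ± 0.49. Myl3, the ventricular light chain, had 3.11 ± 0.64 and 1.92 ± 0.81, called only for low injury. Mybpc3, the cardiac myosin-binding protein, was at 4.92, 3.41, 2.65, 16.1 and 13.0 CPM. Its interactions of 3.45 ± 0.57 and 2.99 ± 0.75 came mostly from the ventilated side.

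Other striated muscle genes behaved alike. Mb, the oxygen store myoglobin, was at 25.8, 7.61, 16.9, 48.3 and 35.7 CPM, with 3.41 ± 0.57 and 2.97 ± 0.75. Xirp1 and Mybphl, 2 further sarcomere-associated genes, had 3.19 ± 0.58 and 3.08 ± 0.80, and 3.16 ± 0.52 and 2.82 ± 0.66. Ckm, muscle creatine kinase, had 2.97 ± 0.53 and 2.54 ± 0.67. Hrc, a calcium-binding protein of the sarcoplasmic reticulum, had 3.08 ± 0.54 and 2.52 ± 0.80, the second not called (adjusted p = 0.0721).

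The promoters of Myl7 (chr11:5898783-5899032, minus strand), Actc1 (chr2:114052876-114053125, minus strand) and Mybpc3 (chr2:91117894-91118143, plus strand) are shown because serum response factor and MEF2 are textbook regulators of muscle genes. Capitals mark a CArG box 61 to 52 and 47 to 38 bases before the start of the first and second, and a MEF2 site 90 to 81 bases before that of the third. Actc1, cardiac alpha-actin, had interactions of 2.10 ± 0.33 and 1.98 ± 0.37.
Myl7: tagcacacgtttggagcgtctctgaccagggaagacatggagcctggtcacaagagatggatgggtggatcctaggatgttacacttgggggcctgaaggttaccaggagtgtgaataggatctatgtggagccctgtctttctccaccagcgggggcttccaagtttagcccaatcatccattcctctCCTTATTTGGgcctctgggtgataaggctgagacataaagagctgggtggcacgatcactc
Actc1: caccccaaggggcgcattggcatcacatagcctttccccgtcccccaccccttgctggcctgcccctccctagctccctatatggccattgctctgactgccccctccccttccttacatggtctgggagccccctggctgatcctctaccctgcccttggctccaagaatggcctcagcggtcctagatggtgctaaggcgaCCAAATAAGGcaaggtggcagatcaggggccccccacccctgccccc
Mybpc3: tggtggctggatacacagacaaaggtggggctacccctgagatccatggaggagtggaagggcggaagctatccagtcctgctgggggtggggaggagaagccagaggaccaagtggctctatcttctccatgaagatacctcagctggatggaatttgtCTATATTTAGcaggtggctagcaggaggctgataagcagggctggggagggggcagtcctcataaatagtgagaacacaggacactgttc

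A CArG box was found in 2 of 18 cardiac genes with a promoter available (11.1%) and a MEF2 site in 3 of 18 (16.7%), beside 1.42% and 1.89% over all tested genes. The element TGACGTCA was found in none of the 18. The promoters of Tnnt2, Tnni3 and Hspb7 held neither a CArG box nor a MEF2 site, and only promoters with a match are printed above. Of the immediate early genes, 4 of 22 held a MEF2 site (18.2%), so the muscle motif was not limited to muscle genes.

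Smooth muscle and fat genes moved the same way with smaller numbers. Of 13 contractile genes of smooth muscle, 6 were called positive for low and 4 for high injury, with medians of 0.93 and 0.76. Acta2, smooth muscle actin, was at 191, 108, 157, 209 and 220 CPM. Its interactions were 1.23 ± 0.24 and 1.30 ± 0.27. Cnn1, calponin, was at 68.6, 37.4, 45.1, 70.1 and 68.9 CPM, with 1.58 ± 0.26 and 1.55 ± 0.29. Of 18 listed genes of fat and skeletal muscle only 5 were tested, so most of the list is not covered. Of these 5, which include Ckm given above, 4 and all 5 were called positive. Adipoq, the fat hormone adiponectin, was at 6.59, 2.27, 6.18, 9.03 and 13.2 CPM, with 2.28 ± 0.58 and 2.81 ± 0.59. Fabp4, a lipid carrier of fat cells and also of alveolar macrophages, was at 24.8, 10.3, 21.8, 37.6 and 35.0 CPM, with 2.19 ± 0.35 and 2.07 ± 0.41. Cfd (adipsin) and Plin4, a lipid droplet protein, were positive in both interactions as well, but the high-injury call of Plin4 ended with its own error throughout (adjusted p = 0.0849). In Acta2, Cnn1, Adipoq and Fabp4 the unventilated knockouts were the lowest group and a ventilated knockout group the highest. Myl9, a myosin light chain, was at 136, 85.1, 107, 129 and 120 CPM, and Myh11, the smooth muscle myosin heavy chain, at 263, 150, 186, 218 and 189 CPM. In these, the unventilated knockouts were again lowest but the unventilated wild types were highest, with interactions of 0.96 ± 0.23 and 0.86 ± 0.25 for Myl9, and 1.01 ± 0.25 and 0.81 ± 0.26 for Myh11, the last not called.

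B cell genes had called interactions for high injury. Of 18 members none was called for low injury (median -0.11), where none passed an unadjusted p of 0.05 either, and 9 were called positive for high injury (median 1.58). In the authors' deposited tables, 16 of the 18 were lower in unventilated knockouts, 13 lower in low-injury knockouts and none called in high-injury knockouts. Summed levels were 362 CPM in WT_noVILI, 141 in KO_noVILI, 252 in WT_VILI, 92.7 in KO_VILIlow and 243 in KO_VILIhigh. The high-injury knockouts were thus near the ventilated wild types and the other knockout groups well below their wild types. Cd79a, a signalling chain of the B cell receptor, was at 31.9, 10.5, 22.4, 10 and 26.9 CPM, with 0.54 ± 0.35 and 1.97 ± 0.37 (adjusted p = 3.84e-05). Faim3, the Fc receptor for IgM, was at 18.9, 4.38, 11.5, 2.07 and 9.75 CPM, with -0.26 ± 0.46 and 1.98 ± 0.42. Cd79b, the other signalling chain, had -0.10 ± 0.32 and 1.31 ± 0.33, the second not called with its own error throughout (adjusted p = 0.164). H2-Ob, a class II chaperone of B cells, was lower than wild type in all 3 deposited tables, by 2.29, 2.43 and 1.1 log2, and its interaction was called for high injury at 1.19 ± 0.35. Of 8 plasma cell genes none was called in either, and 0 and 1 passed without adjustment.

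**Figure D3:**
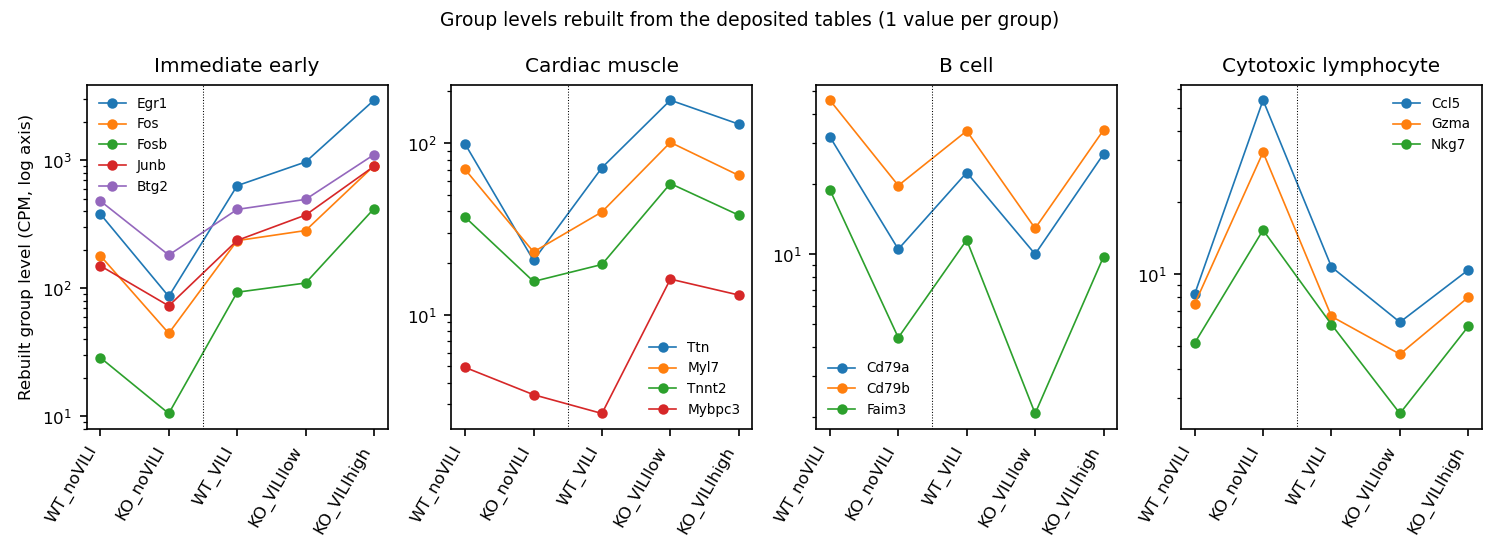
Rebuilt level of selected genes in each of the 5 groups in CPM on a log axis, 1 value per group without error, with unventilated groups left of the dotted line. Immediate early genes are lowest in KO_noVILI and highest in KO_VILIhigh, cardiac genes peak in KO_VILIlow, B cell genes are low in KO_noVILI and KO_VILIlow, and cytotoxic genes are highest in KO_noVILI.

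Single genes of cytotoxic lymphocytes had large negative interactions. Of 19 T and NK cell genes, 3 were called negative for low injury and 1 for high injury, with medians of -0.71 and -0.06. Summed levels were 211, 354, 213, 159 and 257 CPM in the order of groups above. Ccl5, a chemokine of activated T and NK cells, was at 8.22, 53.8, 10.7, 6.27 and 10.4 CPM. Only the unventilated knockouts stood out. Its interactions were -3.31 ± 0.69 (adjusted p = 3.35e-04) and -2.61 ± 0.71 (adjusted p = 0.0192). Gzma, a granule protease, was at 7.47, 32.5, 6.63, 4.60 and 7.98 CPM, with -2.49 ± 0.60 (adjusted p = 0.00514) and -1.69 ± 0.62 (adjusted p = 0.183). Nkg7, a granule membrane protein, was at 5.12, 15.3, 6.13, 2.59 and 6.02 CPM, with -2.62 ± 0.66 and -1.42 ± 0.68, the first called.

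Interferon and MHC class I genes leaned negative with few calls, more so for low injury. Of 29 interferon-responsive genes, 1 was called negative for low injury (Gbp6, a guanylate-binding protein, at -2.16 ± 0.51) and none for high injury, with medians of -0.54 and -0.37. Values were below 0 for 27 of the 29 for low injury and for 23 for high injury. Over all genes tested, 47.2 and 45.5% were above 0. Of 22 genes of MHC class I and peptide loading, 1 was called negative for low injury and none for high injury. All 22 low-injury values were below 0, with a median of -0.51, and 16 of the 22 high-injury values, with a median of -0.30. The called gene, H2-Q10, belongs to a family of near-identical copies whose reads may be split or shared, so its value of -1.12 ± 0.30 is uncertain. In the authors' deposited table for unventilated lungs, 11 of the 29 interferon genes and 11 of the 22 class I genes were called higher in knockouts. With ventilation, 6 of the 22 class I genes were called higher in low-injury and 6 in high-injury knockouts. Of the 29 interferon genes, none was called in low-injury knockouts, and 2 were called higher in high-injury knockouts. H2-Q10 was called higher in unventilated, low-injury and high-injury knockouts, by 2.17, 1.05 and 1.4 log2. All 10 MHC class II genes were below 0 for low injury. For high injury 5 were above and 5 below 0, and the only call, H2-Ob, was positive.

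Proliferation genes also leaned negative. Of 25 genes of cell cycle and DNA replication, 3 were called negative for low injury and 1 for high injury, with medians of -0.86 and -0.66, and 23 of the 25 were below 0 in each. Mki67, the Ki-67 antigen of dividing cells, was at 22.1, 37.3, 25.2, 17.5 and 20.5 CPM. Its interactions were -1.17 ± 0.32 (adjusted p = 0.0287) and -0.95 ± 0.35 (adjusted p = 0.192). Top2a, the topoisomerase of dividing cells, was at 10.2, 19.5, 11.9, 8.06 and 8.86 CPM, with -1.34 ± 0.35 and -1.22 ± 0.43. Rrm2, a subunit of ribonucleotide reductase, was called for high injury at -2.01 ± 0.51. In Mki67 and Top2a the unventilated knockouts were the highest group and the low-injury knockouts the lowest.

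Cldn4 aside, which is not in the list, none of 28 tight junction genes was called for low or high injury, the values ran from -0.84 to 0.98 and from -0.77 to 1.1, and the medians were 0.06 and 0.18. At an unadjusted p of 0.05, 4 passed in each. Cldn3, a claudin related to claudin-4, was at 135, 144, 195, 199 and 224 CPM, with interactions of -0.08 ± 0.23 and 0.10 ± 0.27. Cldn18, the main claudin of alveolar epithelium, was at 1180, 862, 1030, 1050 and 1000 CPM, with 0.44 ± 0.29 and 0.37 ± 0.30. Cldn5, the endothelial claudin, had 0.21 ± 0.23 and 0.08 ± 0.24. With these errors, changes under about the smallest called sizes given above could not be detected. None of 16 genes of alveolar sodium transport and water channels was called by this normal test, and 1 passed without adjustment in each interaction. None of 20 alveolar type 2, 18 alveolar type 1 or 23 ciliated cell genes was called, where 1, 1 and 3 passed without adjustment for low injury and 3, 0 and 10 for high injury.

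Some airway secretory genes were called. Of 14 club and goblet cell genes, 1 was positive for low injury, and 5 positive and 1 negative for high injury. Bpifa1, a secreted airway defence protein, was at 3.69, 0.417, 17.0, 37.8 and 191 CPM. Its fitted interactions of 4.42 ± 1.17 and 6.76 ± 1.16 rest on an unventilated knockout level close to 0. Scgb3a2, a secretoglobin, was at 682, 427, 549, 425 and 755 CPM, with 0.24 ± 0.24 and 1.06 ± 0.25 (adjusted p = 0.00266). Cyp2a5, a xenobiotic cytochrome, was at 229, 72.4, 111, 85.2 and 193 CPM and called for high injury at 2.47 ± 0.56, with the limit that it has close paralogues. Fmo2, a monooxygenase of lung, was at 1340, 1510, 1210, 1320 and 664 CPM, with -0.11 ± 0.24 and -1.07 ± 0.25 (adjusted p = 0.00244). The high-injury knockouts were the lowest group for Fmo2. Calcrl, the endothelial receptor for adrenomedullin, was the 1 endothelial gene of 27 called, at -1.0 ± 0.30 for high injury, and its call ended on centring the values (adjusted p = 0.0513).

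Single genes outside these lists also had large values. Nptx1, a neuronal pentraxin, was at 1.47, 3.05, 2.83, 46.0 and 28.9 CPM, so both ventilated knockout groups lay far above the other 3. Its interaction was 3.36 ± 0.52 (adjusted p = 8.93e-08) for low and 2.60 ± 1.1 (adjusted p = 0.324) for high injury. Alpl, tissue-nonspecific alkaline phosphatase, was at 4.45, 53.7, 19.5, 56.4 and 66.6 CPM. All 3 knockout groups were at a similar level and wild types differed between ventilated and not, which gave -1.91 ± 0.34 and -1.69 ± 0.37, both called. Plcb1, a phospholipase of G protein signalling, was at 37.1, 64.2, 55.7, 26.7 and 31.7 CPM, with -1.81 ± 0.29 and -1.56 ± 0.32. Pknox2, a homeobox factor, was at 50.8, 113, 82.9, 93.5 and 52.3 CPM, with -0.95 ± 0.24 and -1.79 ± 0.40. Cntn4, an adhesion molecule best known in neurons, was called negative for high injury at -3.58 ± 0.90. It was lowest in KO_VILIhigh, at 0.696 CPM.

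Some genes kept the sign of their genotype difference. In the authors' deposited tables, 72 genes were called with the same sign in unventilated and low-injury lungs, and 71 in unventilated and high-injury lungs. Of these, 4 and 7 also had a called interaction, beside 153 and 220 of 12483 over all genes, and the median size of the interaction was 0.35 and 0.52 log2. H2-M2, a nonclassical class I gene, was at 0.860, 31.2, 1.52, 14.5 and 15.6 CPM, with genotype differences of 5.18, 3.75 and 3.65 log2. Its interactions of -1.43 ± 0.58 and -1.53 ± 0.59 were not called. As a member of the MHC family its reads may be shared with related copies.

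The high- and low-injury interactions differed for 20 genes, 18 higher for high injury (0.144%) and 2 lower (0.016%). In this difference the unventilated groups cancel, and it equals the high-injury minus the low-injury genotype difference. The ventilated wild types cancel too while their variance is still counted, so the test is conservative, and 291 genes (2.33%) passed an unadjusted p of 0.05. Of the 18, 10 were immediate early genes, out of 28 tested. All 28 had a difference above 0, with a median of 0.88 log2, beside 48.4% of all genes tested above 0. Fosb differed by 1.95 ± 0.32 (adjusted p = 1.26e-05), Fos by 1.70 ± 0.31 (adjusted p = 1.6e-04), Egr1 by 1.59 ± 0.35 (adjusted p = 0.01), Zfp36 by 1.36 ± 0.31 and Atf3 by 1.30 ± 0.28. Atf3, a stress-induced repressor, was at 25.8, 14.9, 218, 229 and 564 CPM, so it was at like levels in ventilated wild types and low-injury knockouts. Ier2, Ier5, Junb, Nr4a1 and Btg2 were the other 5, and they are named, like Sfn below, because they are plotted.

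B cell genes made up 4 of the 18. They included Fcrla, an Fc receptor-like protein, at 2.67 ± 0.63, Faim3 at 2.24 ± 0.52 and Cd79b at 1.41 ± 0.35. Over the 18 B cell genes the median was 1.71, and all were above 0. The calls of Faim3 and Cd79b ended with their own errors throughout (adjusted p = 0.132 and 0.685). Cxcl1 differed by 1.69 ± 0.41, Sfn (the p53 target 14-3-3 sigma) by 1.22 ± 0.28 and Nr1d1 by 1.16 ± 0.29. On the negative side stood Per3, at -1.18 ± 0.29, and Angptl7, an angiopoietin-like secreted protein. Angptl7 was at 5.61, 4.86, 31.8, 30.9 and 6.14 CPM: ventilated wild types and low-injury knockouts were high, and high-injury knockouts were at the unventilated level. Its difference was -2.34 ± 0.43 (adjusted p = 1.6e-04).

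No cardiac muscle gene was called in the difference between the 2 interactions, and 1 passed an unadjusted p of 0.05. All 21 values were below 0 with a median of -0.49 log2 and a median SE of 0.53. For Ttn the difference was -0.46 ± 0.84 and for Myl7 -0.64 ± 0.51. Il1b differed by 1.05 ± 0.41 (adjusted p = 1) and Cldn18 by -0.07 ± 0.27. For these genes no difference between the injury grades was called after adjustment. Il1b remains undecided, since its genotype difference was 0.68 log2 in low-injury and 1.73 in high-injury lungs.

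**Figure D4:**
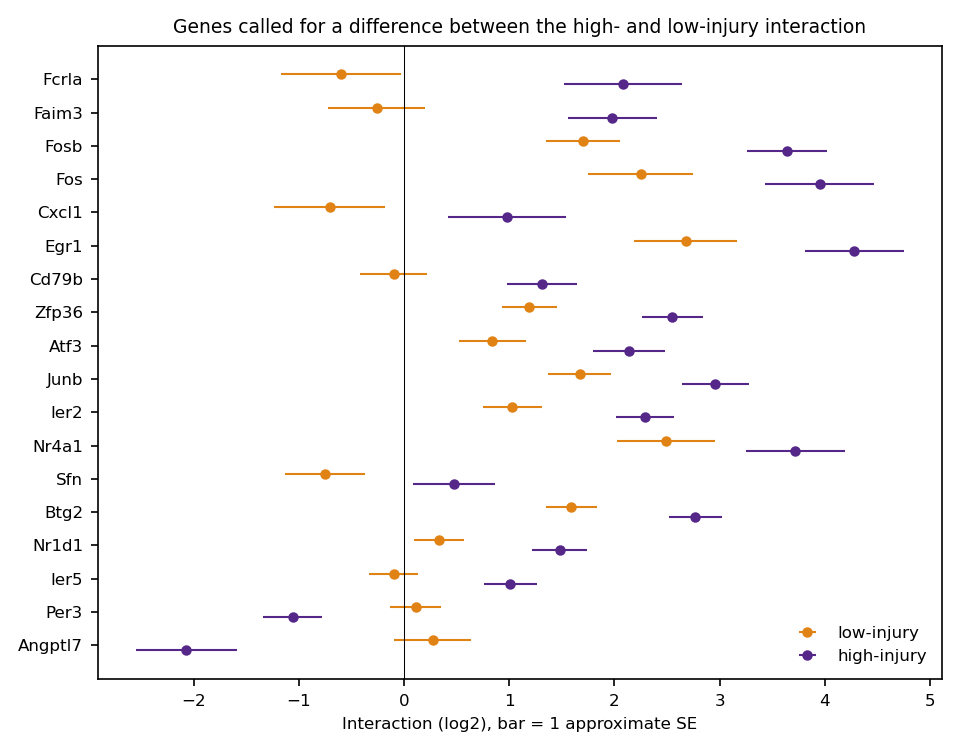
Low-injury (orange) and high-injury (purple) interaction in log2 units, with bars of 1 approximate SE, for 18 of the 20 genes whose 2 interactions differed at an adjusted p of 0.05. In the immediate early genes other than Ier5 both values are above 0 with the high-injury value further right; B cell genes lie near or below 0 for low injury and at 1.31 or more for high injury; Per3 and Angptl7 are negative only for high injury.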

How the data were processed

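RNA of whole lungs was sequenced in 5 groups. Per the submitters' processing notes, the authors used Bowtie 1.1.2, the mouse build mm9, R 3.0.1 and edgeR. The deposited tables give, per gene and comparison, a log2 fold change and a log2 mean abundance in CPM. Each deposited p-value, and its adjusted form, was computed by the authors with edgeR at settings not given in the sources used here. Depth per library is unknown, and each table pools the libraries of 2 groups.

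Each ventilated knockout table was read as a comparison with WT_VILI. Reference levels rebuilt from it lay closest to that group (median distance 0.0619 and 0.0454 log2, against 0.23 and 0.2273 from WT_noVILI) without matching exactly. The level of each group was solved from the fold change and the abundance. The SE of a fold change was its size divided by the normal quantile of its p, or, for a p above 0.5, the median over 200 genes of like abundance (39.4 to 53.4% of genes in the 3 tables used). Variances were summed, and a two-sided normal test with Benjamini-Hochberg adjustment was made over 12483 genes, called at 0.05. The test is approximate, since 2 libraries per group set each error.

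The members and the 35 gene lists were chosen with earlier results of these data known. Named genes were 8 fixed ones (Cldn3, Cldn4, Cldn5, Cldn18, Egr1, Il1b, Il6, Tnf). To these were added, per contrast, the called genes with the 10 highest and 10 lowest values, if every group had at least 0.5 CPM and the gene was not a predicted one. Each list contributed up to 4 called members by smallest p, and further members where it had few calls. Genes of the group-level comparisons outside that rule (Ctgf, Klf6, Nfil3, Hspa1a, H2-M2, Ier2, Ier5, Sfn) were chosen after their values were seen. A few genes that met the rule are not reported here. Identifiers matched a GRCm38.p6 gene table for 21534 genes; it gave names, chromosomes and promoter sequences. The procedure was tested on simulated data. Those data had normal errors of the same size as the derived SEs, so they could not show whether the SEs themselves are right. Alternatives were the error estimate, abundance minimum, centring, adjustment, sex-linked genes and groups under 0.5 CPM. The software was Python 3.11.15 with scipy 1.17.1, pandas 2.3.3, numpy 2.4.6 and, for plots, matplotlib 3.10.9.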

Additional observations from a re-analysis of the deposited data

Results flagged for a closer look

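For 22 genes, the authors' deposited tables called opposite genotype differences in unventilated and low-injury lungs and the interaction was called as well. All but Plcb1 are expressed in striated or smooth muscle. Among them were Ttn (3.60 log2), Mb (3.41), Mybphl (3.16), Myl7 (3.01), Ckm (2.97), Tnnt2 (2.93), Tnni3 (2.58), Hspb7 (2.46), Cnn1 (1.58) and Plcb1 (-1.81). Plcb1 alone of the 22 was higher in knockouts at rest and lower after ventilation.

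For high injury the same held for 13 genes, a number that leaves out genes with a group under 0.5 CPM, and none of the 13 is a muscle gene. Egr1 had 4.28 log2, Fos 3.95, Nr4a1 3.72, Egr3 and Fosb 3.64 each, Cyr61 2.97, Junb 2.96, Btg2 2.77, Dusp1 1.97 and Nr1d1 1.48. All were lower in knockouts at rest and higher in high-injury knockouts. Of the 21 cardiac muscle genes, the authors called 3 higher in high-injury and 16 in low-injury knockouts, with a median SE of 0.45 and 0.32. Still, all 21 high-injury interactions were above 0, and 13 were called. None of the 21 was called in the difference between the injury grades. All 21 differences were below 0, however, with a median of -0.49 log2 and a median SE of 0.53. The 2 counts do not show a muscle pattern particular to low injury, and this conservative test could not exclude such a pattern.

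Between the injury grades, the interaction itself differed by 2.67 log2 for Fcrla, 2.24 for Faim3, 1.95 for Fosb, 1.70 for Fos, 1.69 for Cxcl1, 1.59 for Egr1, 1.41 for Cd79b, 1.36 for Zfp36, 1.30 for Atf3 and 1.16 for Nr1d1, and by -1.18 for Per3 and -2.34 for Angptl7. Animals entered a grade by their injury, so these differences describe lungs sorted by outcome.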

How the results depend on the processing

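No paired analysis was possible because the deposited tables carry no values per library, and for the same reason no library could be left out. No result changed direction under the 8 alternatives. With errors taken from genes of like abundance throughout, 59 negative low-injury, 274 positive and 104 negative high-injury interactions were called, and 39 and 7 differences between injury grades. With the abundance minimum raised to 3, low-injury calls were 77 and 17, and 1 gene was lower for high than low injury. Under Benjamini-Yekutieli adjustment, low-injury calls were 78 positive and 9 negative (89.7% positive, beside 79.1%), high-injury calls 81 and 17, and differences between grades 2 and 1 (66.7% positive, beside 90.0%). Centring gave 83.2 and 80.0% positive. All other counts were within 1.5 times. Of the genes that met the naming rule, 42 of 57, 43 of 71 and 7 of 19 stayed on their side of the threshold under every alternative. Most that did not lost their call under Benjamini-Yekutieli adjustment (15, 26 and 11 genes). Other alternatives ended low-injury calls of Gbp8, Mvd, Mt1 and Bhlhe41, high-injury calls of Il1b, Cd79b, Calcrl and Plin4, and, among others, the calls of Faim3 and Cd79b between grades. The cause was not tested. Precision is limited by 2 libraries per group, unknown depth and errors read from p-values; ventilation and sex cannot be told apart.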

Other observations

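Some lists shifted slightly as a whole without a called gene. Cytosolic ribosomal protein genes had a positive value for 33 of 36 members in low injury and 35 of 36 in high injury, with medians of 0.22 and 0.30 log2, beside 47.2 and 45.5% of all genes above 0. For respiratory chain genes it was 31 and 30 of 34, with medians of 0.17 and 0.22. Without adjustment, 0 and 1 ribosomal and 0 and 0 respiratory chain genes passed a p of 0.05. Their members share assembly partners and are read in the same libraries, so they are not independent of each other.

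Ciliated cell genes were above 0 in 16 of 23 for low injury and in all 23 for high injury, with medians of 0.21 and 0.70. Their summed levels were 707, 488, 518, 378 and 530 CPM in WT_noVILI, KO_noVILI, WT_VILI, KO_VILIlow and KO_VILIhigh. Cholesterol synthesis genes were below 0 in all 16 for low injury (median -0.49) and in 8 of 16 for high injury (median -0.08), with 1 called, Mvd, at -1.21 log2 for low injury. Red blood cell genes, 5 tested, had summed levels of 3950 and 6220 CPM without ventilation, 926 in WT_VILI and 3390 and 3080 in ventilated knockouts, with no called interaction. Collagen and matrix genes had 1 called of 22, Col3a1, at -0.97 ± 0.25 for low injury.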
